A study of Mus musculus with 6 samples.

Results

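The 9 genes described here encode receptors that set the tone of airway smooth muscle, together with the ligand of one receptor pair. They were chosen by symbol from the deposited table of 17023 genes, and all 9 were found in it. They are the muscarinic receptors Chrm2 and Chrm3, the histamine receptor Hrh1, the endothelin receptors Ednra and Ednrb with the endothelin-1 precursor Edn1, the adenosine receptor Adora2b, the angiotensin II receptor Agtr1a and the bradykinin receptor Bdkrb2. RNA was sequenced from primary smooth muscle cells of wild-type (WT) mouse lung after 5 days in transwell plates, in which a porous membrane keeps cell layers apart while dissolved molecules pass. In 3 samples the plate was shared with epithelial cells (co-culture), and 3 control samples had no epithelial cells. The labels give no age, sex or strain, and name no separate culture or animal behind the samples, so the p-values below reflect the scatter of these 6 libraries alone, and that scatter may be technical.

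Airway smooth muscle contracts when acetylcholine, histamine, endothelin-1, angiotensin II or bradykinin binds a receptor coupled to the G protein Gq, which through phospholipase C and inositol trisphosphate releases calcium from internal stores. A parallel route through RhoA keeps myosin phosphorylated. Receptors coupled to Gs raise cyclic AMP and relax the muscle, whereas receptors coupled to Gi lower cyclic AMP.

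The 6 libraries held 17496056 to 18496623 estimated counts each. Levels are in CPM, the reads of a gene relative to all reads of its library, with library sizes scaled by TMM factors, a scaling that equalises the bulk of genes between libraries, and changes are log2(co-culture over control). Control library 4 stood apart from controls 5 and 6, with a TMM factor of 0.885 against 1.01 and 1.001 and a chi-square per degree of freedom of 96.6 and 105 against them, where controls 5 and 6 gave 3.29. Of the markers of the labelled cell type, Acta2 fell from 136 ± 14.3 CPM in controls to 60.3 ± 16.6 with epithelium (SD, n = 3; -1.17, edgeR adjusted p = 0.00788) and Tagln from 36.5 ± 7.82 to 13.1 ± 4.08 CPM (-1.48, edgeR adjusted p = 0.0090), while Myh11, Cnn1 and Des lay at 0.247 to 1.54 CPM in all libraries. The fibroblast marker Pdgfra was at 630 to 907 CPM. Of the same fibroblast list, Dcn was at 288 to 468 and Lum at 96.1 to 204 CPM. Dpt, Npnt, Ly6a and Col14a1 were at 4.74 to 134 CPM, and Tcf21, Pi16 and Col13a1 at 0 to 2.72 CPM. Myh11, Cnn1 and Des thus had 4 to 28 reads a library. Other muscle markers of the same list were higher, with Smtn at 109 to 145, Lmod1 at 22.9 to 36.9 and Synpo2 at 6.43 to 9.68 CPM. Actg2 and Myocd were at 0.0552 to 0.988 CPM.

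Of the 9 genes, 8 had enough reads to be tested, and 3 of these were called: Chrm3 and Bdkrb2 fell in co-culture and Agtr1a rose (quasi-likelihood test of edgeR with p-values adjusted by Benjamini-Hochberg over 12936 genes, called under 0.05). The share called among all genes was 20.6%, with 10.3% higher and 10.3% lower. The same 3 genes had groups that did not overlap, which held for 42.9% of all genes tested. Without control library 4, 4 of the 8 were called, with Ednra added, where 38.6% of all genes were called. A member that passed the filter on low counts through one group alone would have had to differ, so these counts are a description of the 8 genes. In bulk RNA, fewer cells of a type and less RNA per cell cannot be told apart.

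**Figure D1:**
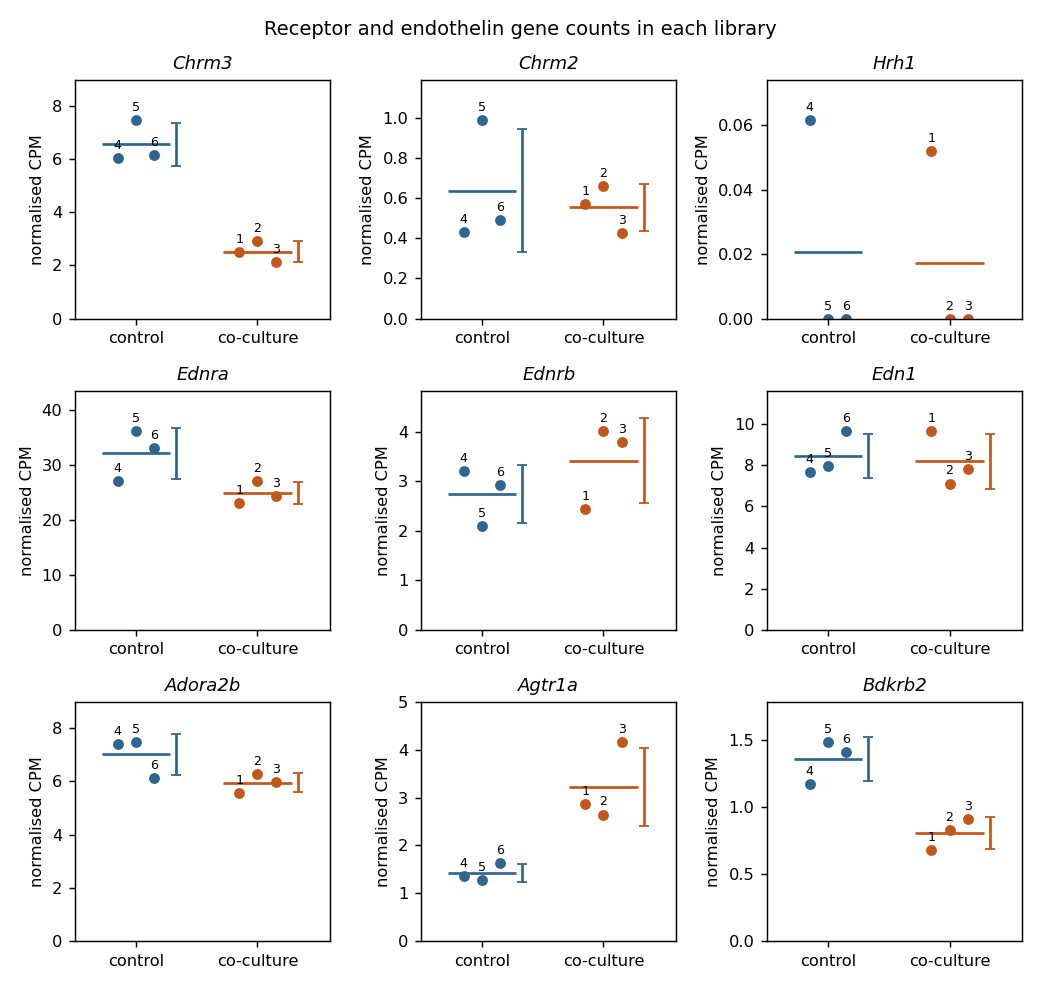
Normalised CPM (y axes, each starting at 0) of the 9 genes in control libraries 4 to 6 (blue) and co-culture libraries 1 to 3 (orange). Points are single libraries with their number, horizontal lines are group means and bars are ± 1 SD (n = 3; not drawn for Hrh1, which had 1 read in each of 2 libraries); Chrm3, Agtr1a and Bdkrb2 are the genes tested whose groups do not overlap.

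Of the muscarinic receptors Chrm2 and Chrm3, only Chrm3 passed the test. It encodes the M3 receptor, which couples to Gq and carries most of the direct contraction of airway smooth muscle to acetylcholine (gene ID 12671, chromosome 13, 9875486 to 10361062). Chrm3 had 48, 53 and 40 reads in co-culture libraries 1 to 3 and 98, 136 and 113 reads in control libraries 4 to 6. In CPM these were 2.50, 2.92 and 2.14 against 6.05, 7.49 and 6.14. Every control library lay above every co-culture library, by more than the spread within either group. The mean fell from 6.56 ± 0.804 to 2.52 ± 0.393 CPM (SD, n = 3), a log2 change of -1.38 ± 0.16 (SE, edgeR adjusted p = 0.00218), so that the control level was 2.60-fold the co-culture level. Acta2 and Tagln fell by similar amounts, and their part in the Chrm3 result was not tested. Of 9 smooth muscle markers tested, 3 were called lower (Acta2, Tagln and Cnn1) and 1 higher (Myocd, with 2 reads in each control). Cnn1 and Myocd passed the filter on low counts only through the group where they were higher. The other markers tested were not called, with log2 changes from -1.76 (Actg2) to 0.36 (Synpo2). The Chrm3 call held in all 11 alternatives run, with adjusted p from 8.47e-07 to 0.0278. On the log2(TPM + 1) scale, which understates changes of low genes, the Chrm3 change was -0.78.

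Chrm2 encodes the M2 receptor, which couples to Gi and opposes relaxation through cyclic AMP (gene ID 243764, chromosome 6, 36387991 to 36528638). It had 11, 12 and 8 reads in co-culture and 7, 18 and 9 in controls. In CPM it was at 0.573, 0.662 and 0.428 in co-culture and at 0.432, 0.991 and 0.489 in controls. The groups overlapped, and the highest and the second lowest of the 6 values were both controls. The fitted change was -0.21 with a 95% interval of -1.16 to 0.74 (edgeR adjusted p = 0.732), an interval that reaches past 1 log2 unit downward. Its sign turned without control library 5, the highest library, to 0.26 (adjusted p = 0.693; 0.481 to 0.969 over the alternatives). Exons of a lincRNA on the opposite strand overlap Chrm2 in GENCODE, and the strandedness of the libraries is not given in the sources used here, so its few reads may be shared.

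The ratio of Chrm2 to Chrm3 per length was formed within each library, so that it does not depend on library scaling. It was 0.181, 0.178 and 0.158 in co-culture and 0.0563, 0.104 and 0.0627 in controls. All 3 co-culture ratios were above all control ratios. On the log2 scale the mean was -2.54 ± 0.109 in co-culture and -3.80 ± 0.475 in controls (SD, n = 3), a difference of 1.26 (exact permutation test, two-sided, p = 0.1, the smallest that 3 against 3 allows). It was 1.09 to 1.53 with any single library left out. The numerator of this ratio rests on 7 to 18 reads a library, and a test of this size cannot pass a threshold of 0.05. A single length of 4930 bases was used for Chrm2 in all libraries. The deposited co-culture FPKM of Chrm2 were 0.11, 0.26 and 0.09 for 11, 12 and 8 reads, so the length behind them differed between libraries. The SDs of the ratio leave this out.

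Hrh1 encodes the H1 receptor, the Gq-coupled receptor for histamine that mediates its bronchoconstriction (gene ID 15465, chromosome 6, 114397936 to 114483298). It had 1 read in co-culture library 1, 1 read in control library 4 and none in the other 4 libraries. In a library with no read, a limit of 3 counts corresponds to 0.160 to 0.166 CPM (counting error only). Both groups were at or under this limit, so no change of Hrh1 was detectable at this depth, and no fold is given.

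Ednra and Edn1 had the highest levels per length of the set. Endothelin-1, cut from the Edn1 precursor, is among the most potent constrictors of smooth muscle. The A receptor encoded by Ednra couples to Gq and mediates constriction and growth responses, and the B receptor encoded by Ednrb couples to several G proteins and also clears the ligand. To give the sequence context of receptor and ligand genes of different behaviour, the 250 bases before the annotated start are shown for Ednra and Bdkrb2, which were lower in co-culture in at least one fit, and for Edn1, whose group means differed least (RefSeq, GRCm38.p6, 5′ to 3′ on the gene's strand). Capitals mark matches on either strand to a motif searched.
Ednra, chr8:77724453-77724702, minus strand: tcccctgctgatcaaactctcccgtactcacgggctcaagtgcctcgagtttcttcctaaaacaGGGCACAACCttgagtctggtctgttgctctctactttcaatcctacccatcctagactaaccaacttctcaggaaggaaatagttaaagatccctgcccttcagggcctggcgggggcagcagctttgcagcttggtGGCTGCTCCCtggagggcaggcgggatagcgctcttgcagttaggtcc
Bdkrb2, chr12:105562922-105563171, plus strand: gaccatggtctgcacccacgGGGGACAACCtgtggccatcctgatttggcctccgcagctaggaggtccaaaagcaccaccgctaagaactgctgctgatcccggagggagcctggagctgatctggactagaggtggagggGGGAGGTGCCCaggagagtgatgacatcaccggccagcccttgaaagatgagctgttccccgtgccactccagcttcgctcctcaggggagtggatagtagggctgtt
Edn1, chr13:42301226-42301475, plus strand: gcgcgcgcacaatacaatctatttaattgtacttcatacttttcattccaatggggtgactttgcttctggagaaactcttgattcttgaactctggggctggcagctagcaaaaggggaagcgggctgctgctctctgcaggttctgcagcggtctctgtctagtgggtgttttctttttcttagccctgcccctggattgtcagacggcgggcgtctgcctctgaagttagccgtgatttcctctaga

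The motifs searched were the NF-kB pattern, GGG and CC with 5 bases of any kind between them, the cyclic AMP response half-site TGACG, the AP-1 site TGANTCA, the aryl hydrocarbon receptor core GCGTG and the CArG box of serum response factor. In the 3 windows shown only the NF-kB pattern matched, 2 times in Ednra and 3 times in Bdkrb2, where the matches at -108 and -107 on opposite strands overlap each other. Edn1 held none of the 5. This pattern is loose and occurs in 45.8% of 32851 windows of the same length, against 17.8% for TGACG, 6.75% for TGANTCA, 28.2% for GCGTG and 1.47% for the CArG box. Windows were found for 8 of the 9 genes, and 5 of these genes had a window lying outside their own transcribed span. Over these 5, the NF-kB pattern was present in 4 (Ednra, Bdkrb2, Adora2b and Hrh1) and GCGTG in 2 (Adora2b and Hrh1). A match is a description of the letters and not of binding.

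Ednra (gene ID 13617, chromosome 8, 77663029 to 77724452) had 444, 491 and 456 reads in co-culture and 438, 659 and 610 in controls. In CPM these were 23.1, 27.1 and 24.4 against 27.1, 36.3 and 33.1. Controls 5 and 6 were above all co-culture libraries, and control library 4 was level with co-culture library 2. The means were 24.9 ± 2.02 CPM in co-cultured libraries and 32.2 ± 4.69 in controls (SD, n = 3), and Ednra did not pass the test (-0.37 ± 0.13 SE, 95% interval -0.67 to -0.07, edgeR adjusted p = 0.0831). Without control library 4, Ednra fell by 0.48 ± 0.082 on the log2 scale (SE, edgeR adjusted p = 6.85e-04). It also passed when limma's voom gave each library a quality weight (-0.46, limma adjusted p = 0.00191). The direction was downward in each of the 11 alternatives, whose adjusted p lay between 6.85e-04 and 0.824. A transcript annotated on the opposite strand overlaps Ednra exons, so part of the reads may belong to it.

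Ednrb (gene ID 13618, chromosome 14, 103814615 to 103844508) had 47, 73 and 71 reads in co-culture and 52, 38 and 54 in controls. In CPM it was at 2.45, 4.03 and 3.80 against 3.21, 2.09 and 2.93. Co-culture libraries 2 and 3 were the highest and co-culture library 1 lay among the controls. Ednrb did not pass (0.32 ± 0.25 SE, 95% interval -0.27 to 0.91, edgeR adjusted p = 0.399), and it was above 0 in all 11 alternatives without passing in any (adjusted p 0.169 to 0.702). Its interval holds both a decrease and a rise of nearly 1 log2 unit.

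The ratio of Ednra to Ednrb per length was 10.4, 7.42 and 7.09 in co-culture and 9.29, 19.1 and 12.5 in controls. Ednra transcripts therefore outnumbered those of Ednrb in every library. The groups overlapped through co-culture library 1 and control library 4. The log2 ratio was 3.03 ± 0.304 in co-culture and 3.70 ± 0.524 in controls (SD, n = 3), a difference of -0.67 with overlapping groups (exact permutation test, two-sided, p = 0.2). With single libraries left out the difference ranged from -0.92, without control library 4, to -0.40, without control library 5.

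Edn1 (gene ID 13614, chromosome 13, 42301476 to 42307990) had 186, 129 and 146 reads in co-culture and 124, 145 and 178 in controls. In CPM it was at 9.68, 7.12 and 7.81 against 7.66, 7.98 and 9.67. The groups covered nearly the same range. The means were 8.20 ± 1.33 CPM in co-cultured libraries and 8.44 ± 1.08 in controls (SD, n = 3), with a change of -0.04 ± 0.15 (SE, edgeR adjusted p = 0.871). The 95% interval of -0.41 to 0.33 does not reach 1 log2 unit in either direction. The sign of this small value turned with log2(TPM + 1) (0.12), without co-culture library 2 (0.05) and without control library 6 (0.09). An antisense gene overlaps Edn1 exons on the opposite strand.

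Endothelial cells are a known source of Edn1 and Ednrb. Their defining markers Pecam1, Cdh5 and Vwf were at 0.0551 to 1.07 CPM. Over the 9 endothelial markers in the table, the summed level was 39.6 to 43.5 CPM in co-cultured libraries and 34.2 to 44.2 in controls, mostly from Flt1. Of 4 tested, 1 fell (Erg) and 0 rose (edgeR; no marker of this list was at 0 in all libraries). Erg had 3, 6 and 6 reads in co-culture, so it passed the filter on low counts only through the controls.

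Adora2b encodes the low-affinity adenosine receptor A2B, which couples to Gs and Gq (gene ID 11541, chromosome 11, 62248984 to 62266452). It had 107, 114 and 112 reads in co-culture and 120, 136 and 113 in controls. In CPM it was at 5.57, 6.29 and 5.99 against 7.41, 7.49 and 6.14. Controls 4 and 5 were above all co-culture libraries, and control library 6 lay between co-culture libraries 2 and 3. The means were 5.95 ± 0.360 and 7.01 ± 0.759 CPM, and Adora2b did not pass (-0.24 ± 0.12 SE, 95% interval -0.53 to 0.05, edgeR adjusted p = 0.218). It was below 0 and did not pass in all 11 alternatives (adjusted p 0.163 to 0.959).

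Agtr1a was the only gene of the set that rose. It encodes the type 1a angiotensin II receptor, the Gq-coupled main mediator of angiotensin II in mouse (gene ID 11607, chromosome 13, 30336356 to 30382867). Agtr1a had 55, 48 and 78 reads in co-culture and 22, 23 and 30 in controls. In CPM these were 2.86, 2.65 and 4.17 against 1.36, 1.27 and 1.63. All co-culture libraries were above all controls, and co-culture library 3 was well above the other two. The mean rose from 1.42 ± 0.189 to 3.23 ± 0.824 CPM (SD, n = 3), a change of 1.18 ± 0.23 (SE, edgeR adjusted p = 0.0152), which is 2.27-fold. Without co-culture library 3 it was 0.95 (adjusted p = 0.0396). The call was lost without control library 5, the lowest control (1.10, adjusted p = 0.0555), and held in the other 10 alternatives, with adjusted p from 0.00363 to 0.0555 over all of them. The paralog Agtr1b, a near copy in mouse, did not pass (0.71 ± 0.28 SE, edgeR adjusted p = 0.138), and reads that fit both copies may have been split between them.

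Bdkrb2 encodes the B2 bradykinin receptor, which couples to Gq and is present without inflammation (gene ID 12062, chromosome 12, 105563172 to 105595244). It had 13, 15 and 17 reads in co-culture and 19, 27 and 26 in controls. In CPM it was at 0.677, 0.827 and 0.909 against 1.17, 1.49 and 1.41. The groups did not overlap, but the nearest libraries were 2 reads apart before scaling. The mean fell from 1.36 ± 0.163 to 0.804 ± 0.118 CPM (SD, n = 3), a change of -0.76 ± 0.21 (SE, edgeR adjusted p = 0.0498). This call lay on the threshold: it held without control library 4 (-0.85, adjusted p = 0.0378) and with quality weights (limma adjusted p = 0.0175), and was lost in the other 9 alternatives. With co-cultured library 1, 2 or 3 removed, edgeR adjusted p was 0.159, 0.128 and 0.0995, and with control 5 or 6 removed 0.132 and 0.140. The full range was 0.0175 to 0.461. On the log2(TPM + 1) scale the change was -0.23.

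**Figure D2:**
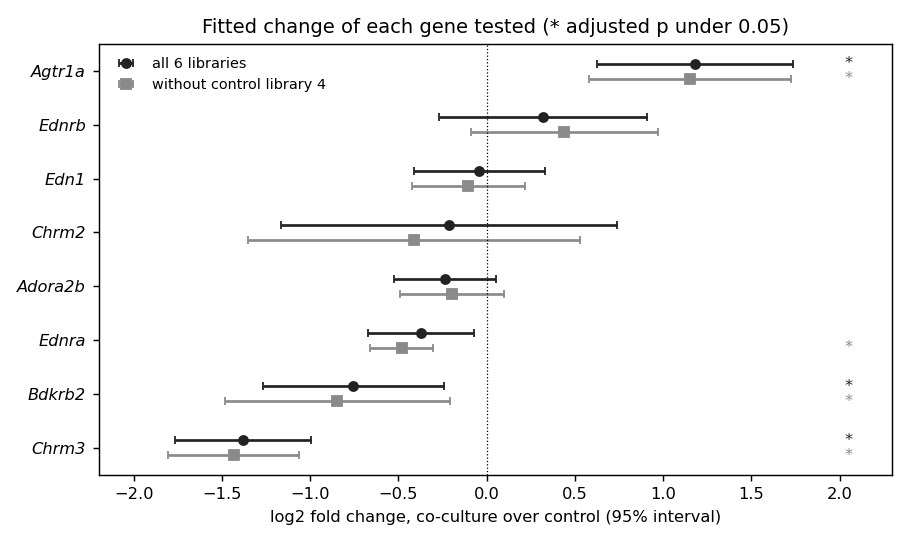
Log2 fold change of co-culture over control (x axis) with its 95% interval for the 8 genes tested, fitted with all 6 libraries (black circles) and without control library 4 (grey squares). Asterisks mark an adjusted p under 0.05; Chrm3, Bdkrb2 and Agtr1a carry it in both fits and Ednra only without control library 4.

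The genes also differed widely in level, which is compared here on the deposited FPKM scale (fragments scaled to transcript length and library depth). In co-culture the order was Ednra at 7.66 ± 0.606 FPKM, Edn1 at 4.57 ± 0.750, Adora2b at 3.94 ± 0.229, Agtr1a at 1.67 ± 0.443 and Ednrb at 0.977 ± 0.265 FPKM (SD, n = 3). Chrm3 at 0.693 ± 0.0757, Bdkrb2 at 0.283 ± 0.0252 and Chrm2 at 0.153 ± 0.0929 FPKM followed, and Hrh1 was listed at 0.02 FPKM in 1 library and at 0 in the others. Neighbours in this order that overlapped were Edn1 and Adora2b, and Ednrb and Chrm3, while Bdkrb2 and Chrm2 met at 0.26 FPKM. In the authors' deposited control means Chrm3 stood at 1.74 FPKM, above Ednrb at 0.723 and Agtr1a at 0.687 FPKM, whereas in co-culture Agtr1a stood above both. FPKM values carry no TMM factors, so changes are read from the count test only.

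**Figure D3:**
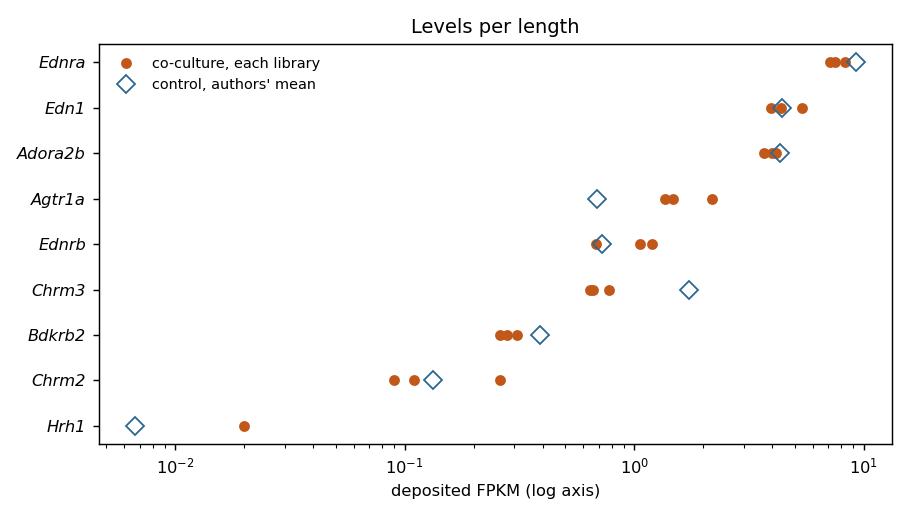
Deposited FPKM (x axis, log scale) of the 9 genes, ordered by their co-culture mean. Orange points are single co-culture libraries (values of 0 cannot be drawn) and blue diamonds are the authors' control means, which have no error here; Agtr1a is right of its diamond in every library and Chrm3 left of it.

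Transcript estimates give little beyond the genes. The transcript table held 17 RefSeq transcripts of the 9 genes, 8 of which could be tested, and 0 were called by edgeR (3 at an unadjusted p under 0.05; 1.91% of 33858 transcripts were called). Ednra, Edn1, Adora2b and Hrh1 had 1 transcript each. For Chrm3 the reads were divided between XM_006516468, with 72.8% of them in co-culture and 66.4% in controls, and NM_033269 with the rest. Neither passed, with log2 changes of -1.25 ± 0.46 and -1.66 ± 0.69 (SE; edgeR adjusted p = 0.308 and 0.372). For Agtr1a nearly all reads went to NM_177322 (95.7% in co-culture, 100% in controls; 1.12 ± 0.38, edgeR adjusted p = 0.271). For Bdkrb2 XM_006515442 took 85.1% and 94.8%, and for Ednrb NM_007904 took 89.8% and 89.2%. The division among overlapping transcripts varied between libraries: the 15.08 estimated reads of Chrm2 transcript XM_006506136 were all in control library 5.

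For each called receptor the 2 tested genes with the highest Pearson correlation of log2 CPM over the 6 libraries were looked up. For Chrm3 they were Tmbim1 and Snx1 (r = 0.999 and 0.998), for Agtr1a C030002A05Rik and Zc3h6 (0.998 and 0.992), and for Bdkrb2 Cux1 and Sema6d (0.996 and 0.995). With 6 points that share 1 group difference, the measure has little resolution, and 19, 3 and 21 genes exceeded 0.99 for the 3 receptors. Each named gene changed less than its receptor on the log2 scale. Tmbim1 and Snx1 changed by -0.15 and -0.16, C030002A05Rik and Zc3h6 by 0.25 and 0.22, and Cux1 and Sema6d by -0.57 and -0.69. Tmbim1, Snx1 and Zc3h6 were not called by edgeR.

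Other receptors for constrictor, amine, peptide and nucleotide ligands were called in both directions. Of 46 with an entry, 23 were tested, and 10 rose and 4 fell (60.9% called, against 20.6% of all genes; median 0.46, against -0.04). Tbxa2r, the thromboxane receptor, rose from 2.23 ± 0.281 to 4.28 ± 0.0967 CPM (0.94, edgeR adjusted p = 0.00533), and further rises were seen for Ltb4r2 (1.45), Ptger1 (1.17) and Adra1d (1.07). F2rl1, the protease-activated receptor 2, fell by 1.81 (edgeR adjusted p = 0.00126). The call of Ltb4r2 was lost without any library other than control library 4 (edgeR adjusted p 0.0614 to 0.0932) and with DESeq2 (adjusted p = 0.0801). Those of Ptger1 and Adra1d were each lost without some single libraries (highest edgeR adjusted p 0.0766 and 0.0853). With a library left out, 4 to 12 receptors rose: the numbers were 4, 6 and 5 after removing each co-cultured library in turn and 12, 4 and 4 after removing controls 4, 5 and 6. In each of these fits 4 fell, so that rises and falls were equal in number without co-cultured library 1, control 5 or control 6. Cysltr1, the main leukotriene receptor of bronchoconstriction, had 3 to 13 reads and was not tested.

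Receptors that relax the muscle gave 0 rises and 3 falls among 14 tested (21.4% called, near the 20.6% of all genes; median -0.20; edgeR, 2 higher and 4 lower at an unadjusted p under 0.05; DESeq2 0 higher, and limma with quality weights 1). Calcrl, the receptor of calcitonin gene-related peptide and adrenomedullin, fell from 22.8 ± 3.95 to 8.78 ± 1.22 CPM (-1.38, edgeR adjusted p = 0.0023), and Adcyap1r1, the receptor of the peptide PACAP, fell by 0.84. Ramp1, a partner of Calcrl with 1 to 14 reads, fell by 1.80 (edgeR adjusted p = 0.0444), a call lost without any library other than control library 4 (edgeR adjusted p = 0.0545 to 0.129). With so few reads, Ramp1 could pass the filter on low counts only through the controls. Its call therefore describes these reads and is not read as support for a change. Without control library 4, 1 relaxant receptor rose and 3 fell.

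Among enzymes and carriers that make or remove the ligands, 4 rose and 9 fell of 29 tested (44.8% called, median -0.08). Agt, the angiotensin precursor, fell from 2.82 ± 0.404 to 0.873 ± 0.0956 CPM (-1.68, edgeR adjusted p = 0.00203) while Agtr1a rose. Ace, which makes angiotensin II and degrades bradykinin, fell by 0.77 (edgeR adjusted p = 0.0121; 0.0523 and 0.0502 when co-cultured library 1 or 3 was removed). Mme, the neutral endopeptidase that degrades endothelin and bradykinin, rose from 53.1 ± 4.61 to 118 ± 7.20 CPM (1.16, edgeR adjusted p = 4.23e-04). Ece1, which cuts the endothelin precursor, had like means in both groups, 130.1 ± 5.02 CPM with epithelium and 130.3 ± 15.9 in controls (-0.0028 ± 0.098 SE, edgeR adjusted p = 0.986). Of the nucleotide-splitting enzymes, Enpp3 fell by 1.19 and Enpp1 by 0.96, and Entpd1 rose by 0.86, a call lost without any co-culture library or control library 5 (highest edgeR adjusted p 0.0721). Rising members numbered 2, 2 and 1 after removing each co-cultured library in turn, 2 without control library 5 and 6 without control library 4, and 6 fell on removing co-cultured library 1 or 3.

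Downstream of Gq and RhoA, 5 rose and 5 fell of 44 tested (22.7% called). Gnaq, the Gq subunit itself, had means of 115 ± 3.25 CPM with epithelium and 117 ± 13.0 in controls (-0.03 ± 0.09 SE, edgeR adjusted p = 0.819). The phospholipases Plcb4 and Plcb1 rose by 0.63 and 0.52, the Plcb1 call being lost on removing co-cultured library 2 or 3 or control 5 or 6 (edgeR adjusted p 0.0653 to 0.0885), and the inositol trisphosphate receptor Itpr1 did not pass (-0.25, edgeR adjusted p = 0.0593; 0.00482 without control library 4). Cd38, which makes the calcium-releasing messenger cyclic ADP-ribose, fell from 23.8 ± 4.35 to 8.97 ± 0.703 CPM (-1.41, edgeR adjusted p = 0.0017), the kinase Prkcb fell by 1.98, and Ppp1r14a, the inhibitor of myosin phosphatase known as CPI-17, rose by 1.61. Without control library 4 the counts were 8 and 14, and 2 fell without any other single library.

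In the cyclic AMP list, 6 rose and 7 fell of 48 tested (27.1% called). The phosphodiesterase Pde4d, which degrades cyclic AMP, fell from 20.8 ± 2.34 to 8.68 ± 0.2996 CPM (-1.26, edgeR adjusted p = 7.23e-04), and Pde8b fell by 1.36, while the calcium-dependent Pde1a rose by 1.01. Pde4b did not pass (0.39, edgeR adjusted p = 0.104; 0.0381 without control library 4). The cyclases Adcy8 and Adcy4 changed by -1.42 and 1.14, and Gnas, the Gs subunit, by 0.03 (edgeR adjusted p = 0.83). Without control library 4 the counts were 10 and 15, and 4 rose on removing co-cultured library 1 or 3 or control 5.

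Regulators of receptor coupling held some of the largest falls. Rgs2, which ends Gq signalling, was at 12.4, 12.5 and 13.9 CPM in co-culture and 74.4, 51.0 and 47.0 CPM in controls, a change of -2.15 ± 0.19 (SE, edgeR adjusted p = 7.14e-04; -1.92 without control library 4). Rgs5 fell by 1.67 and Gpsm1 by 1.79, whereas Gprasp2 and Rgs16 rose by 1.14 and 0.79. Rgs16 was no longer called after removal of co-cultured library 1 or 2 (edgeR adjusted p = 0.0538 and 0.0556). The receptor kinase Grk5 fell by 0.34 (edgeR adjusted p = 0.0481) and lost its call without any library other than control library 4 (0.0647 to 0.168), and Rgs4 and Arrb2 did not pass (-0.32 and 0.09). Of 26 tested, 6 rose and 6 fell (46.2% called), and 3 fell without any single library other than control library 4.

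Transcripts linked to receptor, ERK and calcium signalling were called in both directions, with 11 falls and 7 rises of 29 tested (62.1% called). Their median was -0.04, as for all genes. Without co-cultured library 2 or 3 there were 8 falls and 6 rises, and with log2(TPM + 1) 3 and 3. Ccn2 fell by 1.84, Egr2 by 2.06 and Nr4a3 by 1.47, and Fosl2 rose by 1.34. Myocd, the coactivator of contractile genes, had 16, 14 and 15 reads in co-culture and 2 in each control (2.75 ± 0.32 SE, edgeR adjusted p = 0.002). With so few control reads, Myocd could pass the filter on low counts only through co-culture. Its call therefore describes these reads and is not read as support for a change. On the log2(TPM + 1) scale the Myocd change was 0.25 and was not called (limma adjusted p = 0.158). The contractile genes Acta2 and Tagln fell by 1.17 and 1.48 (edgeR adjusted p = 0.00788 and 0.0090). Cnn1 fell by 1.07 (edgeR adjusted p = 0.0461), with 8, 10 and 6 reads in co-culture and 12, 19 and 17 in controls. Cnn1 passed the filter on low counts only through the controls, so its call, like that of Myocd, only describes these reads. Nr4a3 was no longer called on removal of co-cultured library 2 or 3 or of control 6 (edgeR adjusted p = 0.0717, 0.0838 and 0.0614). These lists were written with earlier results of these data known, and their counts are read only against the 20.6% of all genes.

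**Figure D4:**
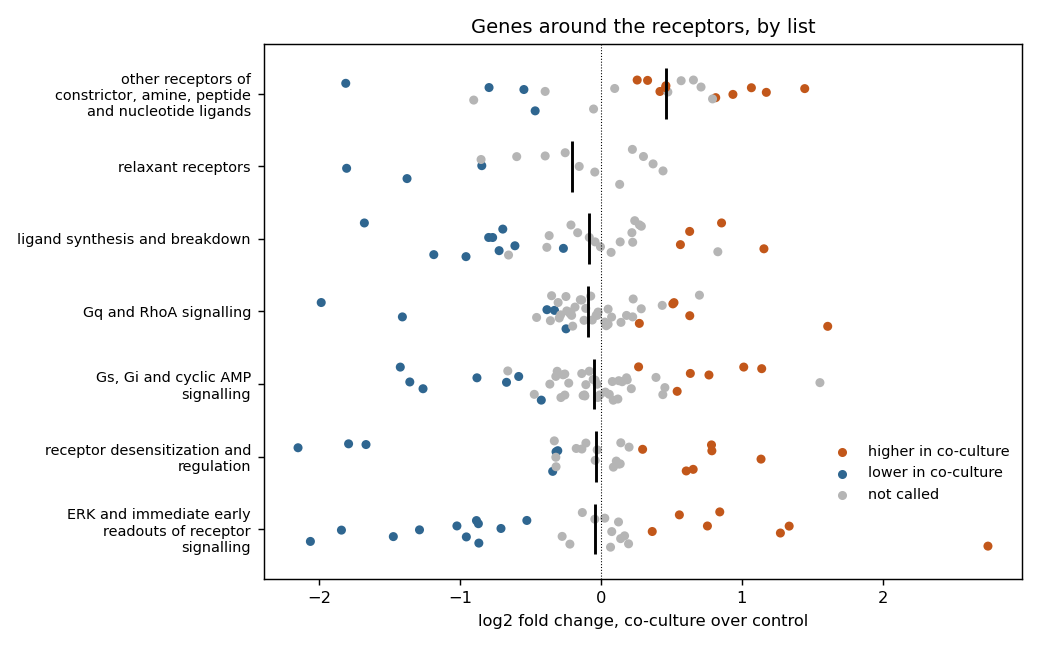
Log2 fold change of co-culture over control (x axis) of every tested gene in the 7 lists of receptors, ligand enzymes and signalling genes. Each point is a gene, orange where it rose, blue where it fell and grey where it was not called, black bars are list medians, and vertical jitter has no meaning; the medians run from -0.20 (relaxant receptors) to 0.46 (other receptors).

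Markers of other cells were counted beside these values, and their part in the results was not tested. Airway epithelial markers summed to 6.87 to 7.78 CPM in co-cultured libraries and 3.40 to 4.07 in controls, with 2 of 2 tested higher (Trp63 and Muc1). Of those not tested, Krt5, Krt14, Cldn4 and Ehf had no read in any co-culture library, and Krt15 had 0 to 1. Elf3 had 2, 5 and 2 reads in co-culture and 0 in each control, and Foxj1 had 3, 4 and 3 against 1 in each control. Epcam, Cldn7 and Nkx2-1 had 2 to 13 reads a library, and their groups overlapped. Leukocyte markers summed to 71.0 to 77.9 CPM in co-cultured libraries and 84.9 to 139 in controls, the highest in control library 4, with 1 higher and 1 lower of 7 tested. Pericyte markers, a cell type that expresses Agtr1a and Rgs5, summed to 913 to 1088 CPM in co-cultured libraries and 788 to 903 in controls, mostly from Postn and Pdgfrb. Of 7 tested, 3 were higher (Notch3, Kcnj8 and Postn) and 1 lower, which was Rgs5 itself (-1.67). Pdgfrb did not pass (-0.22, edgeR adjusted p = 0.218). Smooth muscle markers summed to 222 to 252 CPM in co-cultured libraries and 341 to 342 in controls, with 1 higher and 3 lower of 9 tested. Acta2 and Smtn made up most of this sum, and Smtn did not pass (-0.17, edgeR adjusted p = 0.313). Fibroblast markers summed to 1504 to 1558 CPM in co-cultured libraries and 1299 to 1460 in controls, with 2 higher and 2 lower of 8 tested. Neural and glial markers summed to 8.93 to 9.37 CPM in co-cultured libraries and 6.90 to 10.7 in controls, with 1 higher and 1 lower of 3 tested.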

How the data were processed

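The deposited estimated counts, which need not be whole, and the FPKM values were made by the authors. Alignment used HISAT (per the labels' protocols) and the mouse build mm10 (per the submitters' processing notes). No counting program, annotation release, kit or strandedness is named by these sources. Control columns are numbered 4 to 6 and the labels number controls from 1, so control columns were assigned to the group only. The 21 per-library columns of control FPKM, of TPM and of transcript FPKM were not used here.

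Counts were rounded and tested with edgeR 4.0.16 (R 4.3.3): filterByExpr, TMM factors, glmQLFit and glmQLFTest without covariates, two-sided, Benjamini-Hochberg over all genes tested. The SE is the absolute log2 change divided by the square root of F, and 95% intervals use the moderated degrees of freedom. Transcripts were fitted likewise. The fit was run on simulated counts with the same low dispersion in every library and changes only in genes above a floor of reads. It therefore does not show how the fit behaves for genes with few reads or with a library like control library 4. Lengths for ratios and TPM were computed from the deposited co-culture counts and FPKM. Gene IDs were matched to RefSeq GRCm38.p6 (16975 of 17023), whose 1-based coordinates are given, and exon overlaps were taken from GENCODE M21. Alternatives used DESeq2 1.42.0, limma 3.58.1, no filter, other size factors and each library left out.

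Members and lists were chosen with earlier results of these data known. From each list the text names up to 5 called genes with the largest change and 16 genes set by name, of which 1 is not reported here. Limits of 3 counts and all intervals from counts cover counting error only.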

Additional observations from a re-analysis of the deposited data

How the results depend on the processing

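Direction and side of the threshold held for Chrm3 in all 11 alternatives. The number of the receptor genes called higher stayed at 1 except without control library 5 (0 to 1 with a library left out), and the number called lower was 1 with DESeq2's size factors, without a filter, with DESeq2's Wald test and with log2(TPM + 1), and 1 to 3 with a library left out, since Bdkrb2 was lost in most of these and Ednra gained without control library 4. Over all genes, 512 rose and 238 fell with log2(TPM + 1), 2201 and 2488 with quality weights, and 612 to 2445 and 598 to 2598 with a library left out. Over all list genes, 38 rose and 45 fell, against 14 and 16 with log2(TPM + 1) and 24 to 51 and 31 to 67 with a library left out. With log2(TPM + 1) the median of all genes moved from -0.04 to 0.14 and rises made up 68.3% of calls, against 50.1%, so falls are smaller on that scale. Values near 0 changed sign: Chrm2 (0.256 without control library 5), Edn1 (0.123 with log2(TPM + 1), 0.0518 without co-culture library 2, 0.0928 without control library 6), its transcript NM_010104 (0.0542 and 0.0754 without the same libraries), Ece1 (0.00865 with DESeq2's size factors, 0.0086 with DESeq2's Wald test, 0.191 with log2(TPM + 1), and 0.0279, 0.0529 and 0.0651 without co-culture library 1, control library 5 and control library 6), Gnaq (0.157 with log2(TPM + 1), 0.0763 without control library 6), Gnas (-0.0244 with quality weights, -0.0344 without control library 4) and Rgs4 (0.292 without control library 5). With single libraries left out, the lowest of these values were -0.412 for Chrm2, -0.178 for Edn1, -0.176 for NM_010104, -0.101 for Ece1, -0.107 for Gnaq and -0.670 for Rgs4, and the highest for Gnas was 0.0851. The causes were not tested. With 0.1 added to FPKM, the log2 ratio differences were 1.13 for Chrm2 over Chrm3 (1.26 without it), a move larger than the co-culture SD of 0.109 and smaller than the control SD of 0.475, and -0.62 for Ednra over Ednrb (-0.67 without it). Of the values of named list genes under the alternatives, 407 kept their direction and call, 51 lost and 4 gained the call and 11 changed sign. No paired analysis was possible because the control columns carry the numbers 4 to 6, which match no numbered control label. Depth limits Hrh1 and Chrm2, whose reads were 0 to 1 and 7 to 18 a library.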
